A study of Sus scrofa with 40 samples.

Results

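Nuclear factor kappa B (NF-kB) genes were followed in cortex (C) and corticomedullary junction (CMJ) of 15 kidneys from 3-month-old Large White pigs, on 40 one-colour Agilent porcine arrays with 5 arrays in each of 8 groups. The list held 10 genes, and its probes were found by the gene symbol given in the array files. This rule gave 16 of the 43603 probes of the array, for 8 of the 10 genes, while REL and BIRC3 had a row only under a product name. Control kidneys (Ctl) were sampled at once, and the others had 60 min of warm ischemia (WI) at 37 °C under a vascular clamp. Kidneys of the cold-stored groups were then flushed and kept at 4 °C in University of Wisconsin solution, and the same 5 kidneys were sampled at 6 h (WI+CS6h) and at 24 h (WI+CS24h). The pigs were normal brothers under one anaesthetic and surgical protocol, no kidney was reperfused, and cortex and CMJ were sampled from each kidney. Within a group, replicates are separate kidneys of closely related animals. The main fits treated all arrays as independent, although the 6 h and 24 h arrays share 5 kidneys. The p-values therefore rest on a spread in which these kidneys count at both times.

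NF-kB is a family of dimeric transcription factors built from the RELA, REL and RELB proteins and the processed products of NFKB1 and NFKB2. In resting cells the dimers are held in the cytoplasm by inhibitors such as the product of NFKBIA, and kinases that mark this inhibitor for degradation release them to the nucleus, where early target genes are switched on. Several of these targets, NFKBIA and TNFAIP3 among them, feed back to stop the signal. In kidney, the pathway is known for its part in the inflammatory response to ischemia.

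Probes are 60-base oligonucleotides, and rows of one gene were kept apart. For TRAF3, an adaptor protein that restrains the kinase of the alternative pathway, 3 probes were on the array, and another row, described as TNF receptor-associated factor 3 interacting protein 1 (TRAF3IP1), is set beside them. It was chosen after its values were seen, because its transcript identifier stands under the name TRAF3 in the study's gene lists. The sequences below are these probes, which can so be told apart, the RELA pair that followed each other and 1 of the IER3 probes. RELA A_72_P269269 and IER3 A_72_P025361 are not printed. Sequences run 5′ to 3′ as the array gives them, in lower case throughout since no base is singled out.
TRAF3 A_72_P148336: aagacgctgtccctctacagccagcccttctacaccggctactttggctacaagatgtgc
TRAF3 A_72_P200477: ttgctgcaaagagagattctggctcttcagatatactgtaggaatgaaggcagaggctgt
TRAF3 A_72_P479388: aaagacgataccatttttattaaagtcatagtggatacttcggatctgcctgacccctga
TRAF3IP1 A_72_P530555: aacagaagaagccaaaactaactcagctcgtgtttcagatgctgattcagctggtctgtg
RELA A_72_P541003: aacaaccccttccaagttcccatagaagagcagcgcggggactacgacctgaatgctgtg
RELA A_72_P089326: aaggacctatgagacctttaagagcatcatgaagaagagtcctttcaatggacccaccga
IER3 A_72_P100451: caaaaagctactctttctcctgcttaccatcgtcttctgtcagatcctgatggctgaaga
The TRAF3IP1 probe shared no run longer than 7 bases with any TRAF3 probe.

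Levels are log2 processed intensities, quantile normalized over the 40 arrays, and a difference is the log2 fold change between group means, tested with limma and adjusted by Benjamini-Hochberg over all probes. A probe was called at an adjusted p under 0.05 with a change of at least 0.5. All 16 probes were well above background on all 40 arrays, while 57.0% to 69.9% of all spots on an array were. Summed proximal tubule markers (7 of 12 genes, 22 probes) lay between 18.7 and 19.1 (log2 of the summed intensities) in the Ctl and WI groups of both tissues. Marker genes of medulla and distal tubule (7 of 12 genes) reached 14.00 to 14.37 in Ctl-C and 14.20 to 14.67 in Ctl-CMJ, so the labelled tissues held both sets of markers.

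IER3 and CD83 carried most of the calls, in opposite directions after WI. The study itself named IER3, CD83 and TRAF3 from these arrays, so the shares below describe the list and test nothing about it. Both IER3 probes, and both CD83 probes, stand for 1 gene each. In WI-C versus Ctl-C 1 of the 16 probes was called, IER3, against 0.0849% of all probes (0.0574% for lower alone). In WI-CMJ versus Ctl-CMJ 5 were called, against 0.787% of all probes. These were both IER3 probes as lower, where the background was 0.328%, and both CD83 probes and 1 RELA probe as higher, where it was 0.459%. Cold-stored groups had only CD83 called against controls, always higher. In cortex this was 2 of 16 probes at 6 h, against 4.45% of all probes called and 1.98% called higher, and 1 of 16 at 24 h, against 2.9% and 1.32%. In CMJ it was 2 of 16 at 6 h, against 3.33% and 1.47%, and 2 of 16 at 24 h, against 3.7% and 1.45%. Against WI, cold-stored cortex had 1 IER3 probe higher and NFKB2 lower at both times. Of all probes 2.44% were called at 6 h (1.3% higher, 1.14% lower) and 1.68% at 24 h (0.922% higher, 0.757% lower). Cold-stored CMJ had 1 IER3 probe higher than WI at both times, against 3.28% of all probes called and 1.58% called higher at 6 h and 3.34% and 1.44% at 24 h. Groups whose arrays did not overlap at all were counted as well, call or not. With WI these were 6 of 16 probes in cortex (1.84% of all probes) and 5 in CMJ (4.23%). Between cold storage and control they were 4 at 6 h (5.81%) and 2 at 24 h (6.39%) in cortex, and 2 (6.34%) and 2 (5.62%) in CMJ. Cold storage and WI were apart for 2 probes at 6 h (3.75%) and 0 at 24 h (3.85%) in cortex, and in CMJ for 1 (6.58%) and 2 (5%). The median change over the 16 probes lay between -0.17 and 0.10 in these 10 comparisons, and that of all probes between -0.01 and 0.06.

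**Figure D1:**
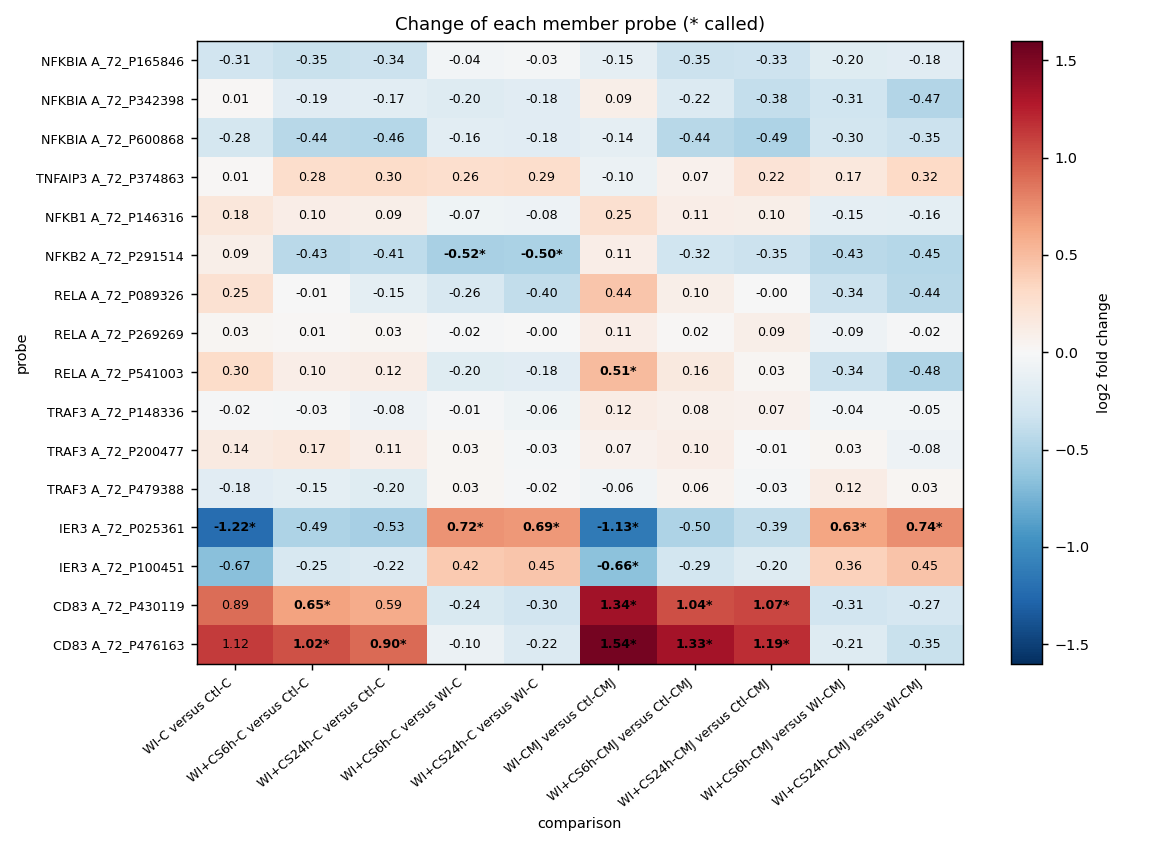
Log2 fold change of each of the 16 member probes (rows) in the 10 comparisons within a tissue (columns), in red for higher and blue for lower in the first-named group, with an asterisk for a call by limma. IER3 is the only gene with blue called cells against control, CD83 the only one called after cold storage against control, and the NFKBIA, TNFAIP3, NFKB1 and TRAF3 rows hold no asterisk.

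Among the early targets, IER3, a stress-inducible immediate early gene whose product acts on cell survival, fell after WI in both tissues on probe A_72_P025361, which was higher again after cold storage. On probe A_72_P025361 the 5 Ctl-C arrays read 9.72, 9.77, 9.67, 9.65 and 9.55, and the 5 WI-C arrays 8.81, 7.74, 8.41, 8.72 and 8.59. The WI+CS6h-C arrays read 8.99, 9.21, 9.23, 9.45 and 8.99, and the WI+CS24h-C arrays 9.10, 9.13, 9.26, 8.74 and 9.49. Every WI-C array was below every Ctl-C array, and both cold-stored groups lay below all controls, though 1 WI+CS24h-C array fell within the range of WI-C. The fall with WI was -1.22 (SE 0.17, adjusted p = 0.0044), a 2.33-fold lower mean. From WI-C to WI+CS6h-C the level rose by 0.72 (adjusted p = 0.026) and to WI+CS24h-C by 0.69 (adjusted p = 0.041). Against Ctl-C the cold-stored groups differed by -0.49 (adjusted p = 0.096) and -0.53 (adjusted p = 0.10), which were not calls.

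In CMJ the same IER3 probe read 9.77, 9.67, 9.70, 9.96 and 9.84 in controls and 8.82, 8.72, 8.62, 8.77 and 8.35 after WI, again without overlap. At 6 h the arrays read 8.89, 9.08, 9.21, 9.36 and 9.91, and at 24 h 9.55, 9.07, 9.33, 9.29 and 9.76, all above the highest WI-CMJ array. The fall was -1.13 (SE 0.16, adjusted p = 0.0024) and the rise from WI 0.63 (adjusted p = 0.029) at 6 h and 0.74 (adjusted p = 0.011) at 24 h. The other IER3 probe, A_72_P100451, followed the first over the 40 arrays (Pearson r = 0.93, as a description). It fell by 0.66 in WI-CMJ (SE 0.15, adjusted p = 0.041) and differed by -0.67 in WI-C without a call (adjusted p = 0.089), and its groups did not overlap in either tissue. From WI to cold storage it differed by 0.42 and 0.45 in cortex and 0.36 and 0.45 in CMJ at 6 h and 24 h, with no call (adjusted p of 0.094 to 0.19), so the rise after cold storage was called on the first probe only. The WI fall of the first probe was called in both tissues under each of the 20 single-array omissions, and the second probe lost its call under 13 of 20. The 6 h and 24 h rises in cortex lost theirs under 2 and 12 of 20 omissions (log2 fold change 0.55 to 0.81 and 0.51 to 0.79), the first without WI-C replicate 3 or WI+CS6h-C replicate 3. In CMJ the 6 h rise lost it under 4 of 20 and the 24 h rise under none. The 6 h rise in CMJ also lost its call with a slide block and in a fit of only the groups compared. Within either scan day both CMJ rises lost theirs. Both rises in cortex also lost their call with a slide block (0.71 and 0.75), with the replicate number as a block, in a fit of only the groups compared and within either scan day (0.58 and 0.98 at 6 h, 0.35 and 1.21 at 24 h). With the slide as a block the WI fall of the first probe measured -1.27 in cortex and -1.29 in CMJ but was no longer called, and within the single slide that held both groups it was -1.18 and -1.34. In cortex this fall also lost its call in a fit of only the groups compared and within either scan day. In CMJ it also lost its call within the first scan day.

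CD83, a membrane protein of the immunoglobulin family known as a marker of mature dendritic cells and as an NF-kB target, was higher after WI and stayed higher through cold storage. On probe A_72_P430119 the Ctl-CMJ arrays read 6.20, 6.08, 6.36, 6.03 and 6.73 and the WI-CMJ arrays 7.57, 7.50, 7.62, 7.62 and 7.81. The WI+CS6h-CMJ arrays read 7.10, 7.23, 7.58, 7.95 and 6.73, and the WI+CS24h-CMJ arrays 7.15, 7.52, 7.76, 7.59 and 6.75. All WI-CMJ arrays were above all controls, and in both cold-stored groups replicate 5 came down to the level of the highest control. The rise was 1.34 with WI (SE 0.21, adjusted p = 0.0052), 1.04 at 6 h (adjusted p = 0.0071) and 1.07 at 24 h (adjusted p = 0.0049). Probe A_72_P476163 rose by 1.54 (adjusted p = 0.0047), 1.33 (adjusted p = 0.0027) and 1.19 (adjusted p = 0.0055) in the same comparisons.

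In cortex, CD83 on A_72_P430119 read 6.58, 6.39, 6.34, 6.22 and 6.99 in controls and 7.35, 7.46, 7.26, 7.44 and 7.46 after WI. These groups did not overlap, and the differences of 0.89 (adjusted p = 0.083) and, for A_72_P476163, 1.12 (adjusted p = 0.058) missed the threshold. After 6 h of cold storage both probes were called, with rises of 0.65 (adjusted p = 0.039) and 1.02 (adjusted p = 0.0087), and after 24 h the second was, with 0.90 (adjusted p = 0.023). Against WI, CD83 in the cold-stored groups differed by -0.10 to -0.35 over both probes and tissues, with no call. Leaving out replicate 5 of Ctl-C, of WI+CS6h-C or of WI+CS24h-C brought CD83 in WI-C past the threshold, and A_72_P430119 lost its 6 h call in cortex under 8 of 20 omissions (0.55 to 0.77), Ctl-C replicates 1 to 4 among them. A_72_P476163 lost its 24 h call in cortex under 5 of 20 (0.75 to 1.02). The CMJ calls held under all 20. With the slide as a block the CD83 rises had like sizes (0.65 to 1.42 for the 9 calls' comparisons), but only both probes in WI+CS6h-CMJ (1.05 and 1.25) stayed called. The interaction of WI with tissue was 0.45 for the first probe (95% interval -0.11 to 1.02) and 0.42 for the second (-0.24 to 1.07), so a larger rise in CMJ than in cortex was not established.

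The size of the CD83 change depended on the background correction. With normexp at an offset of 50 in place of the scanner's own subtraction, the WI-CMJ rise was 0.62 on the first probe, still called, and 0.22 on the dimmer second probe, not called. All 7 CD83 calls after cold storage, in both tissues, were lost under normexp, with rises of 0.12 to 0.49. Leukocyte markers (11 of 15 genes, 21 of 23 probes well above background on at least 1 array) summed to 10.65 to 11.18 in Ctl-C, 10.70 to 11.17 in WI-C, 10.96 to 11.36 in Ctl-CMJ and 10.95 to 11.26 in WI-CMJ, with wider ranges of 10.45 to 11.31 in cold-stored cortex and 10.62 to 11.45 in cold-stored CMJ, and 1 of 2 CD4 probes was never well above background. Adipocyte markers (6 of 6 genes, 25 probes) reached 11.49 to 13.06 in WI-CMJ against 11.64 to 11.99 in Ctl-CMJ, and 11.91 to 12.48 in WI+CS6h-C, above the 11.57 to 11.89 of Ctl-C. Podocyte markers (2 of 6 genes, 3 probes) were also higher in WI+CS6h-C, at 7.88 to 8.41 against 7.54 to 7.78. Erythrocyte markers (2 of 6 genes, 1 of 3 probes well above background on any array) lay at 3.91 to 4.86 in WI-C and 2.00 to 3.31 in Ctl-C, and at 2.84 to 4.77 in WI-CMJ and 2.16 to 3.42 in Ctl-CMJ. Fibroblast and muscle markers (5 of 10 genes, 25 probes) summed to 14.63 to 15.33 in WI+CS6h-C and 14.69 to 15.16 in WI+CS24h-C against 14.40 to 14.72 in Ctl-C, and to 14.76 to 15.78 in WI-CMJ against 14.44 to 15.20 in Ctl-CMJ. The part of adipocyte, podocyte, fibroblast, muscle and erythrocyte RNA in these results was not tested, and in whole-tissue RNA fewer cells of a type cannot be told apart from less RNA per cell.

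**Figure D2:**
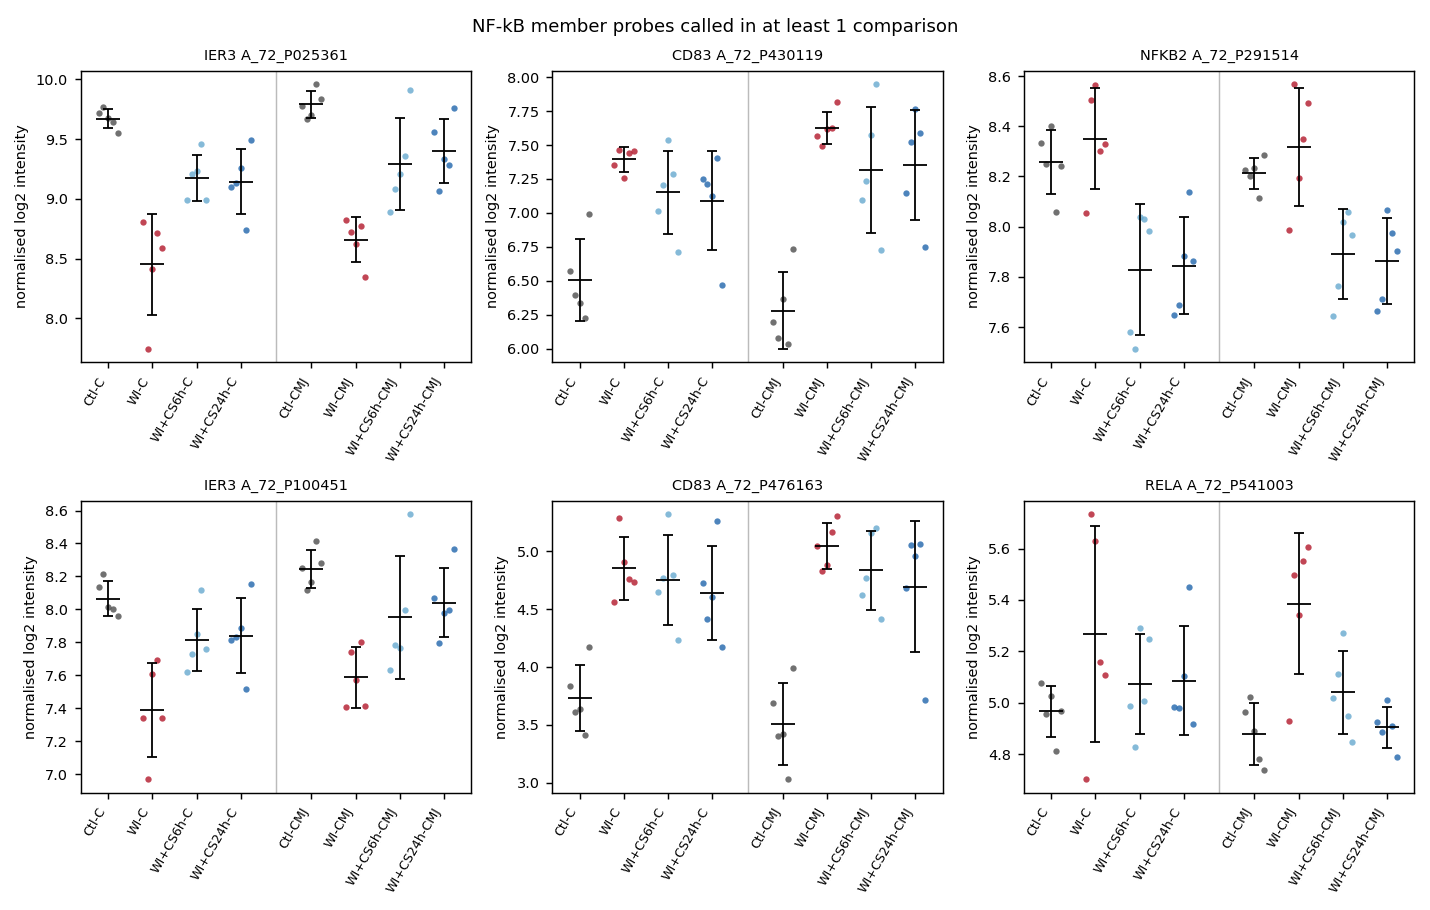
Log2 intensity of the 6 member probes called at least once, 1 point per array, with the mean and SD of each group of 5 as a bar and whiskers, cortex on the left and CMJ on the right of each panel. IER3 drops in the WI groups (red), CD83 is higher in all 3 ischemic groups than in controls (grey), and NFKB2 is lower in the cold-stored groups (blue). Vertical axes differ between panels and do not start at 0.

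Of the NF-kB subunits, RELA, the main activating subunit of the classical pathway, was called on 1 of its 3 probes in 1 comparison. Probe A_72_P541003 read 4.96, 5.02, 4.89, 4.78 and 4.74 in Ctl-CMJ and 4.93, 5.50, 5.34, 5.55 and 5.61 in WI-CMJ. Replicate 1 of WI-CMJ lay among the controls and the other 4 arrays above them. The rise was 0.51 (SE 0.11, adjusted p = 0.038), just past the minimum, and it was lost under 10 of 20 single-array omissions (0.45 to 0.62) and under normexp (0.12). Scaling to the 75th percentile, quantile normalization within each group and the deposited matrix also ended the call. A slide block, a fit of only the groups compared and either scan day alone ended it too. Probe A_72_P089326 differed by 0.44 in the same comparison (adjusted p = 0.063) and A_72_P269269 by 0.11 (adjusted p = 0.73). Over the 40 arrays the first pair followed each other (Pearson r = 0.88) and the third did not follow them (0.24 and 0.21), so the RELA probes disagree. After 24 h of cold storage both of the first pair were below WI-CMJ, by -0.48 (adjusted p = 0.018) and -0.44 (adjusted p = 0.028), under the 0.5 minimum.

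NFKB2, which encodes the precursor of the p52 subunit (A_72_P291514), differed by 0.09 and 0.11 with WI in cortex and CMJ, without a call, and fell from WI to cold storage in cortex. Its WI-C arrays read 8.05, 8.50, 8.56, 8.30 and 8.33, its WI+CS6h-C arrays 7.58, 7.51, 8.04, 8.03 and 7.98 and its WI+CS24h-C arrays 7.65, 7.69, 7.88, 8.14 and 7.86. The 6 h arrays were all below the lowest WI-C array, and 1 of the 24 h arrays was not. The falls were -0.52 (SE 0.13, adjusted p = 0.034) and -0.505 (adjusted p = 0.0498), and single-array omissions gave -0.44 to -0.60 and -0.45 to -0.58, with the call lost under 6 and 14 of 20. A slide block (-0.49 and -0.48) and a fit of only the groups compared also ended both calls. So did scaling to the 75th percentile, quantile normalization within each group, normexp and either scan day alone. Replicates 1 and 2, the lowest NFKB2 arrays of both cold-stored cortex groups, had the highest medulla and distal tubule sums there, at 14.64 and 14.69 at 6 h and 14.68 and 14.85 at 24 h against 14.12 to 14.21 on the other arrays, and the part of this in the fall was not tested. In CMJ the differences from WI were -0.43 (adjusted p = 0.033) and -0.45 (adjusted p = 0.024), under the minimum, and against controls they ran from -0.32 to -0.43 over both tissues and times with no call. NFKB1, the p50 precursor gene (A_72_P146316), had group means of 7.19 to 7.44 and no call. REL was found by product name only (A_72_P337088), with group means of 6.63 to 6.96 and no call.

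Among the inhibitors, NFKBIA, which encodes the IκBα protein that keeps NF-kB in the cytoplasm, and TNFAIP3, which encodes the A20 ubiquitin-editing enzyme, had no call in any comparison. NFKBIA differed by -0.49 to 0.09 over its 3 probes in the 10 comparisons within a tissue, and TNFAIP3 by -0.10 to 0.32. Their arrays, however, spread more in the cold-stored groups than in the others. NFKBIA on A_72_P165846 read 13.07, 12.98, 13.14, 12.86 and 13.08 in Ctl-C and 12.74, 12.69, 12.86, 12.77 and 12.53 in WI-C. In WI+CS6h-C it read 12.68, 12.68, 12.91, 13.31 and 11.79, and in WI+CS24h-C 12.50, 12.57, 13.02, 13.27 and 12.10. The mean SD over the 4 cold-stored groups was 0.523 against 0.115 over the other 4, a ratio of 4.54, where the median ratio over 23219 probes detected on all arrays was 1.38. The ratios were 5.11 for NFKBIA A_72_P600868, 2.50 for NFKBIA A_72_P342398 and 3.03 for TNFAIP3, and they are given as a description with no test.

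In the cold-stored groups, replicate 5 was the lowest array and replicate 4 the highest for each NFKBIA probe, in 4 of 4 groups. The same 5 kidneys were sampled at 6 h and 24 h and in both tissues, so the 4 groups are not independent. That a replicate number is 1 kidney across groups was assumed, since the labels do not state it. In CMJ, A_72_P165846 read 12.63, 12.60, 13.07, 13.55 and 12.24 at 6 h and 12.79, 12.74, 13.20, 13.47 and 11.97 at 24 h. TNFAIP3 (A_72_P374863) read 6.09, 5.31, 5.26, 5.42 and 4.72 in WI+CS6h-C and 6.05, 5.82, 5.16, 5.71 and 4.17 in WI+CS24h-C, against 5.29, 5.19, 5.04, 4.71 and 5.18 in Ctl-C. Replicate 5 was again the lowest in all 4 cold-stored groups, for TNFAIP3 and for both CD83 probes. Summed proximal tubule markers in replicate 5 of the cold-stored groups were 18.1, 18.3, 18.1 and 18.1, below the 18.7 of the lowest other array. The same arrays had the highest adipocyte sums of their groups (12.48, 12.30, 12.54 and 12.35) and the highest erythrocyte sums (4.98, 6.00, 4.42 and 4.84), and the part of these differences in the NF-kB values was not tested. Without replicate 5 of the cold-stored groups, an omission chosen after seeing the data, the calls over the 16 probes went from 4 to 7 against control and from 4 to 2 against WI in cortex, and from 9 to 10 and from 2 to 1 in CMJ.

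**Figure D3:**
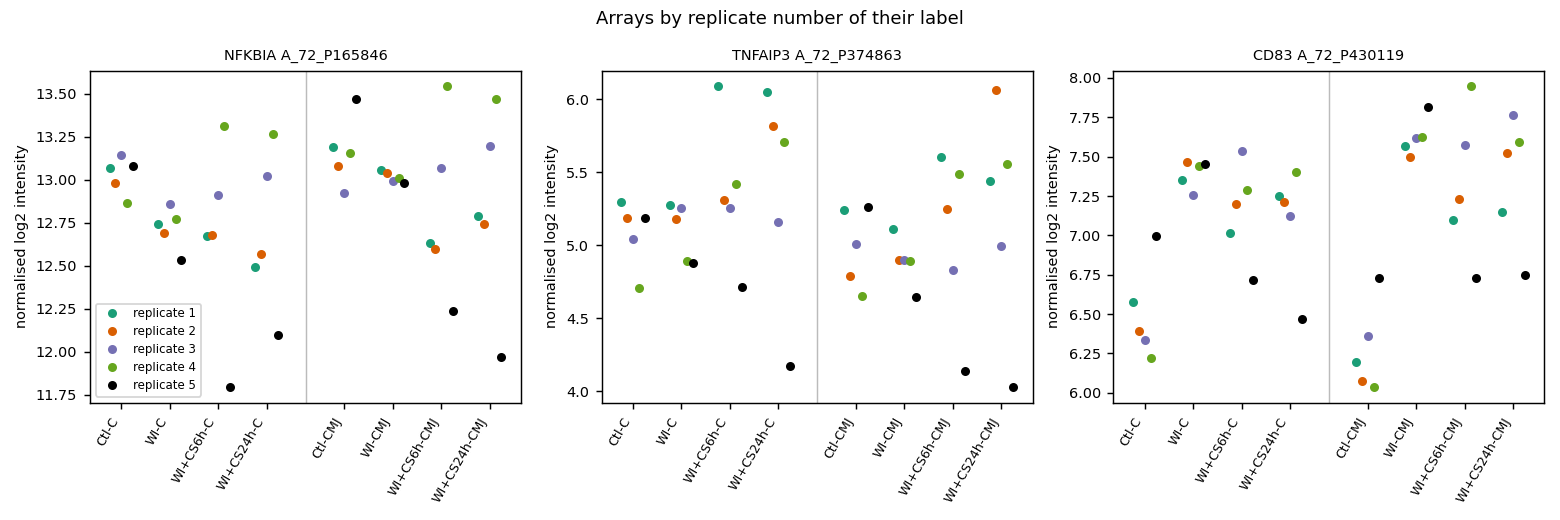
Log2 intensity of NFKBIA A_72_P165846, TNFAIP3 A_72_P374863 and CD83 A_72_P430119 on each array by group, coloured by replicate number. Replicate 5 is the lowest point in each of the 4 cold-stored groups for all 3 probes, and replicate 4 the highest for NFKBIA.

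The adaptor TRAF3 had no call on any of its 3 probes. Group means were 6.59 to 6.73 for A_72_P148336, 5.86 to 6.09 for A_72_P200477 and 6.77 to 7.01 for A_72_P479388, and the differences in the 10 comparisons ran from -0.20 to 0.17. The 3 probes hardly followed each other over the 40 arrays (Pearson r of 0.02, 0.29 and 0.18, as a description). By contrast, the row described as TRAF3 interacting protein 1, a protein of cilia and microtubules that binds TRAF3, had far lower values after cold storage. Its values are given as a description with no test. Of the rows for other TRAF3 interacting proteins, the 3 of TRAF3IP2 (A_72_P381718, A_72_P492124 and A_72_P428259) had no call and the 1 of TRAF3IP3 (A_72_P398438) was well above background on no array.

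On this TRAF3IP1 probe (A_72_P530555) the Ctl-C arrays read 5.05, 5.43, 5.21, 5.86 and 4.45. The WI+CS6h-C arrays read 0.63, 1.98, 4.41, 2.40 and 3.19 and the WI+CS24h-C arrays 0.42, 2.34, 1.57, 0.56 and 2.90, all below every control. In cortex the mean was 5.20 for controls, 5.12 after WI, 2.52 at 6 h and 1.56 at 24 h of cold storage, and in CMJ 4.57, 4.73, 2.44 and 2.67 in the same order. The probe was well above background on only 2, 1, 2 and 2 of the 5 arrays of the cold-stored groups (WI+CS6h-C, WI+CS24h-C, WI+CS6h-CMJ and WI+CS24h-CMJ), so most of the low values lie near background and do not measure how far the level fell. BIRC3, an inhibitor of apoptosis that acts with TRAF proteins, was found by product name on 2 probes, with all arrays between 8.12 and 9.04 on one and between 5.47 and 6.30 on the other, and no call.

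**Figure D4:**
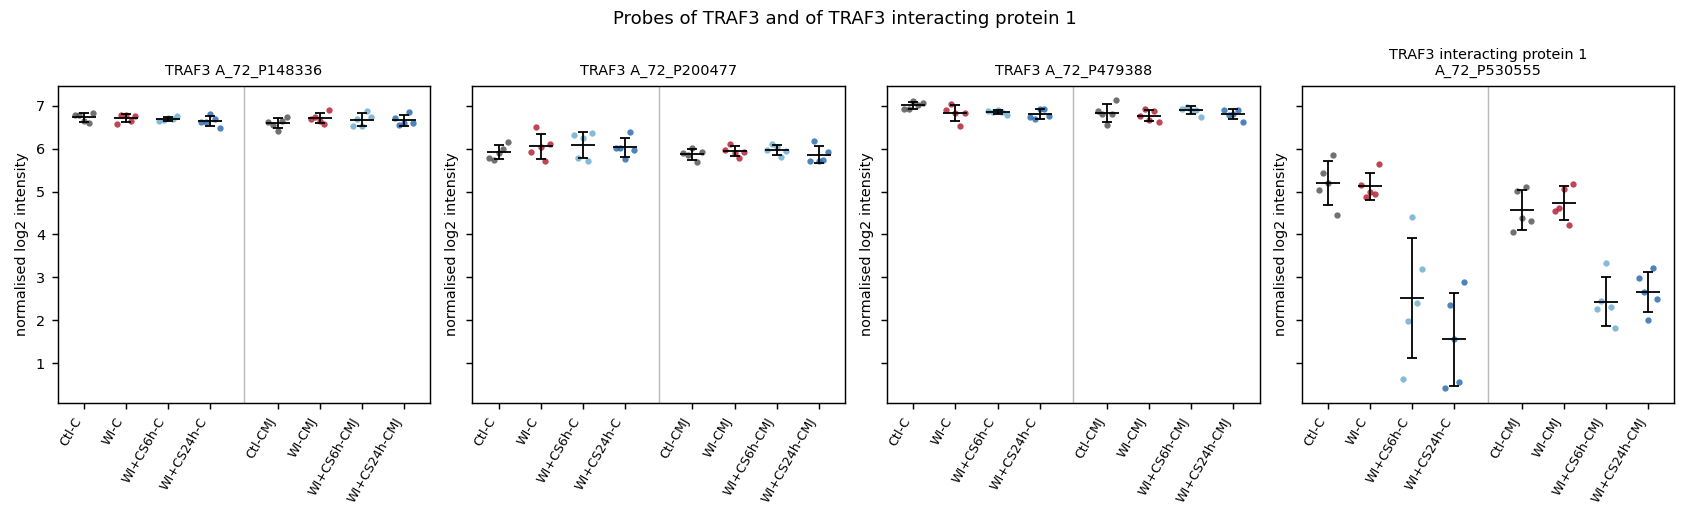
Log2 intensity of the 3 TRAF3 probes and of the TRAF3 interacting protein 1 probe by group on one vertical scale, with 1 point per array and the mean ± SD of 5 arrays. The TRAF3 probes stay between group means of 5.86 and 7.01, and the interacting protein probe drops to means of 1.56 to 2.67 in the cold-stored groups.

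Time in cold storage and tissue gave no call among the members. Between 24 h and 6 h the 16 probes differed by at most 0.16 in size, with 0 called by limma and 0 at an unadjusted p under 0.05 in either tissue (all probes called 0% in cortex and 0.00229% in CMJ). This test did not pair the kidneys sampled at both times. Between CMJ and cortex the members differed by -0.30 to 0.30, again with 0 called and 0 at an unadjusted p under 0.05 (all probes called 0.347% in Ctl, 0.863% in WI, 0.0643% at 6 h and 0% at 24 h). That fit over 40 arrays does not use the shared kidney. Arrays of WI-CMJ and WI-C did not overlap for 2 of 16 probes (3.67% of all probes), NFKBIA A_72_P165846 and CD83 A_72_P430119, both higher in CMJ, and those of the other treatments overlapped for all 16 (2.79% of all probes apart in Ctl, 0.636% at 6 h and 0.402% at 24 h). Paired by replicate number within the groups compared, 0 members were called, and 2 in Ctl, 4 in WI, 1 at 6 h and 0 at 24 h had an unadjusted p under 0.05. The share of all probes at that p was not counted in these paired fits, so the counts have no background to be read against. The 3 interactions of treatment with tissue had no call either, with 0 members at an unadjusted p under 0.05 and 0% of all probes called.

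Beyond the members, 54 of 85 other genes of the pathway were found by symbol, with 129 probes, and 14 of these genes were called in at least 1 of the 10 comparisons, where 16.1% of all 7447 gene symbols were. By probe, 37 of the 129 were called at least once, 15 of them for ZFAND5 alone, against 9.51% of all probes. Since 27975 of the 43603 probes carried no symbol, genes not found by symbol may still have a probe and were not analysed here. The counts by role below are small and are read against the same 16.1%. ZFAND5, MAP3K8 and CCL2 were named by the study from these same arrays, so the counts are a description only. Of receptors and adaptors, 2 of 11 genes were called, MYD88, the adaptor of Toll-like receptors, which rose by 0.58 in WI-CMJ (adjusted p = 0.015), and RIPK1, a kinase of the TNF receptor complex, which fell by 0.52 from WI-CMJ to WI+CS24h-CMJ (adjusted p = 0.031). Of 10 kinases only MAP3K8, which relays Toll-like receptor signals, was called, lower in 5 comparisons. Its mean went from 6.90 in Ctl-C to 5.53 in WI+CS24h-C, a fall of -1.37 (adjusted p = 0.00062). None of the 6 probes of the 1 subunit or coregulator gene was called. Of 6 inhibitors, 2 were called, both lower. ZFAND5, a zinc finger protein related to A20, fell on 15 of 15 probes and in 8 comparisons, by -0.61 to -1.15.

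Targets of NF-kB moved in both directions, with 9 of 26 genes called. The chemokine genes CCL2, CXCL2 and CXCL8 and the transcription factor gene KLF6 were called only as higher. CCL2 went from 7.11 in Ctl-C to 8.59 in WI+CS6h-C on probe A_72_P675364, a rise of 1.48 (adjusted p = 0.0018), and CXCL2 rose by 0.97 in WI+CS6h-CMJ (adjusted p = 0.012). SELE, an endothelial adhesion molecule gene, rose on 1 of 2 probes in 1 comparison. The cytokine gene IL6 was lower after cold storage in CMJ on both probes, from 5.03 to 2.63 at 6 h on A_72_P177826, a fall of -2.40 (adjusted p = 0.00012) with 3 of 5 cold-stored arrays well above background, so that the size of the fall rests partly on values near background. EDN1, the endothelin 1 gene, and TNFSF10, which encodes the death ligand TRAIL, were lower in 8 comparisons each. EDN1 was well above background on only 1, 2, 3 and 3 of 5 arrays in the cold-stored groups (cortex at 6 h and 24 h, then CMJ), while the TNFSF10 probe A_72_P444191 was on all 40 arrays. LCN2, the gene of the kidney injury marker lipocalin 2, rose by 0.83 in WI-CMJ (adjusted p = 0.049) and was lower at 6 h of cold storage than after WI.

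In WI-C, 0 of the 129 pathway probes were called by limma, where 0.0849% of all probes were called. An unadjusted p under 0.05 was found for 17 of the 129 and for 2313 of all 43581 probes tested. In WI-CMJ 3 genes were called higher and 1 lower, or 3.10% of the pathway probes against 0.787% of all. Cold-stored cortex differed from control in 3 genes higher and 5 lower at 6 h (18.6% of pathway probes against 4.45%) and in 2 and 5 at 24 h (17.8% against 2.9%). The corresponding counts in CMJ were 3 and 5 (20.2% against 3.33%) and 4 and 5 (23.3% against 3.7%). From WI to cold storage they were 2 and 4 (16.3% against 2.44%) and 1 and 3 (14.0% against 1.68%) in cortex, and 1 and 5 at both times in CMJ (17.8% against 3.28%, then 16.3% against 3.34%). Of the pathway probes called in each of these cold-storage comparisons, 14 or 15 were ZFAND5 probes, so the shares of probes count 1 gene many times. The comparisons of a tissue share their control and WI arrays and, in cold storage, their kidneys.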

How the data were processed

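RNA of 40 tissue samples (RNeasy Plus, one-color Low Input Quick Amp labelling) was hybridised to Agilent arrays, and the authors deposited the Feature Extraction 11.5.1.1 output as intensity and a log2 matrix they had quantile normalized. The main values here were log2 processed intensity, with outlier-flagged spots missing, quantile normalized over 40 arrays and averaged per probe (43603 probes). The deposited log2 matrix served as an alternative. In R 4.3.3, limma 3.58.1 was fitted to the 20 arrays of a tissue, or to all 40 for tissue and interaction, with Benjamini-Hochberg adjustment over all probes. Scripts were tested on simulated data. Members and lists were chosen with earlier results of these data known. The text names all member probes, at most 4 pathway probes per tissue and direction with the largest called change and groups that do not overlap, and the 3 probes most like each called member. MYD88, RIPK1, CXCL8 and SELE fell outside this rule and were chosen after their values were seen. Same-numbered cold-stored samples varied together between cortex and CMJ at 6 h (r 0.17 to 0.50) and 24 h (0.18 to 0.55) and between times in CMJ (0.37 to 0.66). Between times in cortex they did not (-0.26 to 0.39). The labels do not state that a number is a kidney, so pairing by number is an assumption. Arrays lay on 10 slides scanned on 2 days. The number of arrays limits the precision. No genome coordinates were used here.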

Additional observations from a re-analysis of the deposited data

Results flagged for a closer look

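CD83 on probe A_72_P476163 was flagged in replicate 5 of WI+CS24h-CMJ, which read 3.71 on the log2 scale while the nearest of the other 4 arrays read 4.68. The gap was 0.721 of the range of the group, above the critical value of 0.71 for 5 samples. It was the only one of 128 groups of 5 tested that was flagged, and chance flags about 1 in 20.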

How the results depend on the processing

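The number of calls over the 16 member probes was 4 against control and 4 against WI in cortex, and 9 and 2 in CMJ. No value called in the main fit changed sign under any setting, and values never called were not checked for sign. Against control in cortex, normexp gave 1, a fit of only the groups compared 2, a slide block 0 and either scan day alone 0, while the settings chosen after seeing the data gave 7 (replicate 5 of the cold-stored groups left out) and 7 (all 40 arrays in one fit). Against WI in cortex, scaling to the 75th percentile and normexp gave 2 each, only the groups compared 0, the cold-stored replicate 5 left out 2, a slide block 0 and either scan day 0. Against control in CMJ, normexp gave 2, a slide block 2 and the first scan day 0. Against WI in CMJ, only the groups compared gave 1, the cold-stored replicate 5 left out 1 and either scan day 0. With the replicate number as a block, cortex had 3 calls against control and 2 against WI and CMJ had 9 and 2, and the pairing changed no call between 24 h and 6 h, where the count stayed 0. Leaving out 1 array at a time gave 2 to 7, 0 to 5, 7 to 10 and 1 to 6. The 0 against WI in cortex came without WI-C replicate 3, and the 6 in CMJ without WI-CMJ replicate 1. Of 46 differences within slides that bear on the 19 calls, 43 kept the direction. Scaling to the 75th percentile moved the median of all probes by 0.10 in WI+CS6h-C versus Ctl-C. The cause of these changes was not tested.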

Other observations

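A list of 15 other immediate early genes, which respond within minutes to many stimuli besides NF-kB and among which IER3 was not counted, was called only as higher in the comparisons with control. By symbol, 8 of them were found, with 21 probes. In WI-C 5 probes of 2 genes were called (0.0849% of all probes) and in WI-CMJ 11 of 5 (0.787%). In cortex 16 probes of 6 genes were called at 6 h (4.45%) and 15 of 5 at 24 h (2.9%), and in CMJ 10 of 5 (3.33%) and 11 of 5 (3.7%). Among 13110 candidate probes, those most like the CD83 probes over the 40 arrays were JUN (Pearson r of 0.88 and 0.90), IL1B1 (0.86 and 0.88) and HBEGF (0.81 and 0.86). IER3 on A_72_P025361 was most like NPRL2 (0.73), PPP2R2A (0.69) and PIGO (0.69), and on A_72_P100451 most like NUP188 (0.73), CD163 (0.69) and FBXO9 (0.67). NFKB2 was most like KLF15 (0.90), RIPK1 (0.90) and NNAT (0.89), and RELA on A_72_P541003 most like KDM2A (0.90), NDST2 (0.89) and MED15 (0.89). These are descriptions over arrays that share groups and kidneys.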
